A study of Canis lupus familiaris with 12 samples.

Results

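Long non-coding RNAs (lncRNAs) that overlap a protein-coding gene or start beside one were examined in the right atria of dogs. They were chosen from the lncRNA table as the transcripts whose stated relationship to a coding gene is antisense, sense-overlapping or bidirectional and not intergenic. This gave 2025 of 9610 lncRNA transcripts, and the other 7585 were intergenic. Each of the 2025 was set beside the mRNA of its coding gene, here called its partner, and all 2243 pairs, with 1765 partner genes, were found in the mRNA table by name and position. Rapid right atrial pacing, in which a pacemaker drives the atrium fast enough to bring on fibrillation, was compared with no pacing. Control dogs had the same operation and a pacemaker put in place, but no stimulation. Each group had 3 libraries of ribosomal RNA-depleted total RNA. The pacing columns are P1, P2 and P3 and the control columns are C1, C2 and C4. The dogs were mongrels of either sex, and no genotype or drug distinguishes the groups.

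A lncRNA on the strand opposite to a gene can pair with its transcript or interfere with the passage of the polymerase. One that runs in the same direction inside an intron is hard to separate from the unspliced precursor of the gene itself. Bidirectional lncRNAs start close to the start of a gene and run away from it, and share its promoter region. In the heart, antisense and divergent lncRNAs are known beside genes of contractile proteins and of cardiac transcription factors.

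Of the 2025 transcripts, 1345 (66.4%) were intronic antisense, 377 (18.6%) intron sense-overlapping and 215 (10.6%) bidirectional. A further 6 were exon sense-overlapping, 3 were natural antisense, which overlap exons of the opposite strand, and 79 (3.9%) carried more than 1 of these relationships. One partner gene was named for 1877 transcripts, and up to 8 were named for the rest. The annotation calls 119 of them misc_RNA and 1906 lincRNA. The median length was 637 nt.

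Library C4 stood apart from the other 5 libraries before any comparison. NPPA, the atrial natriuretic peptide, was at 3613, 3454 and 8496 FPKM (fragments scaled to transcript length and library total) in pacing libraries, against 3226 and 1658 in C1 and C2 and 7.78 in C4. MYL2, the ventricular myosin light chain, was at 30.3, 108.2 and 2.28 FPKM in pacing libraries, against 64.2, 45.2 and 2331 FPKM in C1, C2 and C4. The summed atrial markers (9 of 11 in the table) were 7920 to 15890 FPKM in pacing libraries, 7151 and 2828 in C1 and C2 and 68.2 in C4, so C4 goes against its atrial label. A sample titled C4 is also labelled as paced, and the column was kept as control by its name. Summed adipocyte markers (5 of 6 in the table) were 12.8 to 17.5 FPKM in pacing libraries, against 596.3, 271.9 and 10.0 FPKM in C1, C2 and C4. Their part in the results below was not tested. Read depth also differed. The steps between low FPKM values put relative depth at 0.726, 1 and 0.990 in pacing libraries, against 0.533, 0.566 and 0.607 in C1, C2 and C4.

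Most of these lncRNAs were listed at 0. A value above 0 in at least 1 library was found for 715 transcripts (35.3%), in all 6 libraries for 178, and 1310 were at 0 throughout. Among the 3 largest classes, intron sense-overlapping and bidirectional lncRNAs were detected more often, at 59.4% and 56.3%, than intronic antisense lncRNAs, at 24.8%, and 30.4% of intergenic lncRNAs were detected. In each library intron sense-overlapping and bidirectional lncRNAs were above the other 2 of these groups. Intron sense-overlapping transcripts were above 0 for 39.5% to 44.8% in pacing libraries, against 35.3% to 38.2% in control libraries. Intronic antisense transcripts were above 0 for 12.5% to 14.2% in pacing libraries, against 9.44% to 11.3% in control libraries. Among lincRNA alone, 55.4% of intron sense-overlapping and 55.9% of bidirectional transcripts were detected, against 25.1% of intronic antisense and 30.7% of intergenic transcripts.

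**Figure D1:**
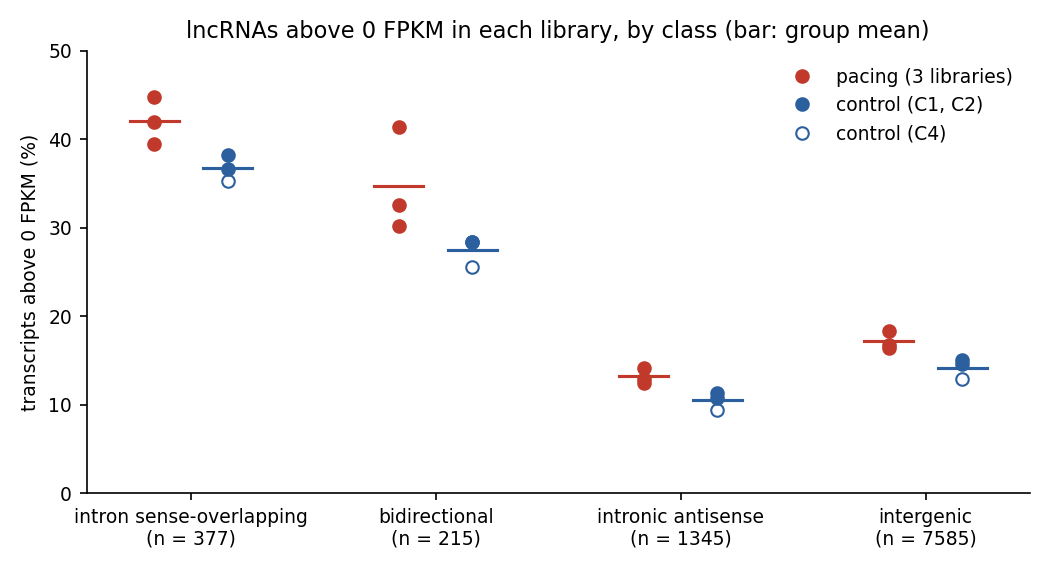
Share of lncRNA transcripts above 0 FPKM (y axis, percent) in each library (points) by class (x axis), with pacing libraries in red, control libraries in blue, C4 as an open circle and bars at the group means. Intron sense-overlapping transcripts sit between 35.3% and 44.8% and intronic antisense transcripts between 9.44% and 14.2%.

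The number of detected members per library was higher in pacing, whose libraries were also the deeper ones. It was 413, 424 and 477 in P1, P2 and P3, against 382, 366 and 335 in C1, C2 and C4, a mean of 438 ± 34.2 in pacing and 361 ± 23.9 in control (SD, n = 3 each). Every pacing library was above every control library. The 2-sided exact permutation p was 0.1, the smallest that 3 against 3 allows, and relative depth separated the groups in the same way (p = 0.1, exact permutation test). Among control libraries C1 was the shallowest with the most detected members and C4 the deepest with the fewest. Among pacing libraries P1 was the shallowest (0.726) with the fewest, while P2 and P3 were close in depth (1 and 0.990). Depth and group cannot be told apart here. Between 13 and 21 values per library were above 0 but worth under 0.5 read, and with these left out 34.2% of members were detected.

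The share of lncRNAs detected varied with the level of the partner mRNA, and by different amounts in the 3 classes. When the partner mRNA averaged under 0.1 FPKM, 23.1% of intron sense-overlapping, 24.2% of bidirectional and 23.8% of intronic antisense pairs had a detected lncRNA. When the partner averaged 10 FPKM or more, 76.0% of intron sense-overlapping and 69.2% of bidirectional pairs did, but 31.1% of intronic antisense pairs. The median partner of a detected intron sense-overlapping lncRNA was at 5.57 FPKM, and that of an undetected one at 0.238 FPKM. For intronic antisense lncRNAs these medians were 4.33 and 2.59 FPKM. Whether the counting used the strand of the reads is not stated, and reads of an unspliced partner cannot be told apart from those of a sense lncRNA in its intron.

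**Figure D2:**
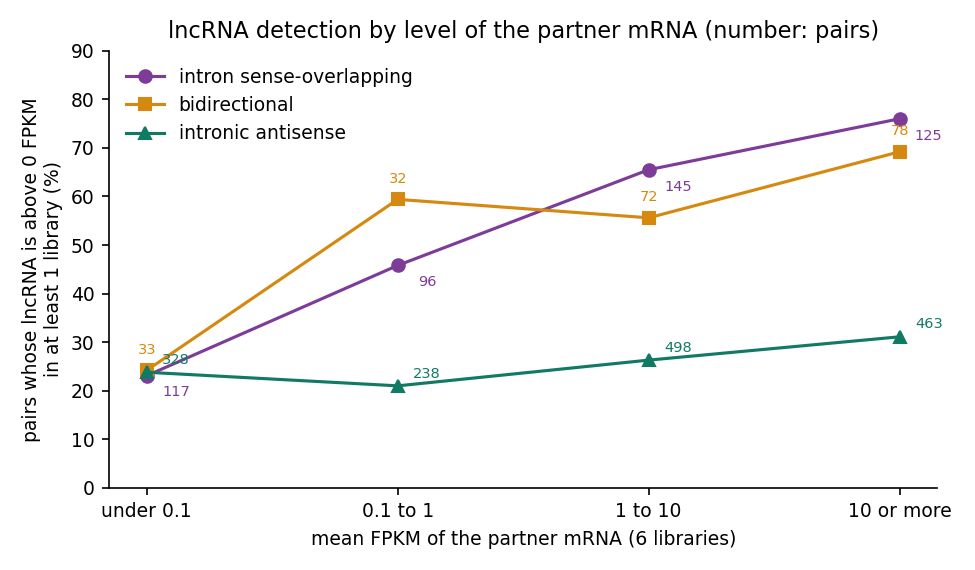
Share of pairs whose lncRNA was above 0 FPKM in at least 1 library (y axis, percent) by the mean FPKM of the partner mRNA over 6 libraries (x axis, 4 bins), with the number of pairs beside each point. The intron sense-overlapping line climbs to 76.0% and the bidirectional line to 69.2%, while the intronic antisense line ends at 31.1%.

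With both members of the pair at a testable level (a mean of 0.3 FPKM or more for lncRNAs and 1 FPKM or more for mRNAs), Spearman's rho between their mean FPKM was 0.40 over 139 intron sense-overlapping pairs, -0.16 over 51 intronic antisense pairs and -0.12 over 27 bidirectional pairs. These pairs share the same 6 libraries and some share a gene, so the values are descriptions. The median lncRNA was at 0.12 of the FPKM of its partner in the intron sense-overlapping class, 0.0599 in the intronic antisense class and 0.0707 in the bidirectional class. The lncRNA was above its partner in 7, 5 and 3 of these pairs.

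**Figure D3:**
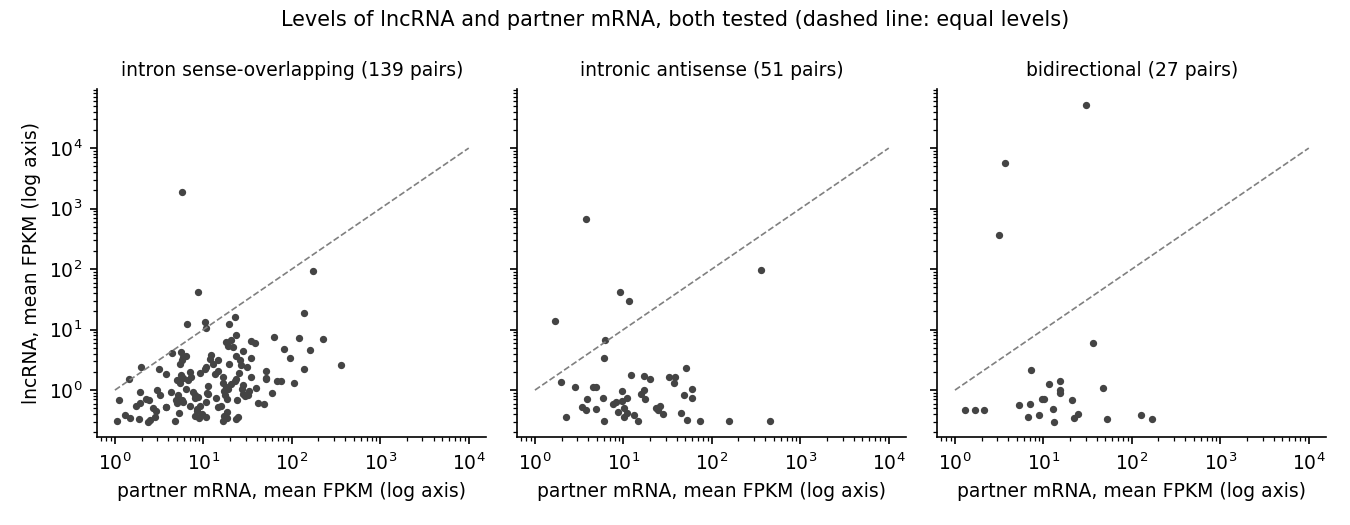
Mean FPKM over 6 libraries of each lncRNA (y axis, log) and its partner mRNA (x axis, log) for pairs with both tested, in 3 classes, with a dashed line at equal levels. Most points lie under the line, with 7 intron sense-overlapping, 5 intronic antisense and 3 bidirectional pairs above it.

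A small set of short RNAs held most of the signal. ENSCAFT00000034117, a misc_RNA of 331 nt on chromosome 12 that starts 335 bases from ENSCAFG00000024066, was at 42450, 69010 and 57670 FPKM in pacing libraries, against 44770, 66280 and 31110 FPKM in C1, C2 and C4. It alone took 81.2% to 88.2% of the summed FPKM of all members in pacing libraries, against 79.1% to 86.0% in control libraries. Its groups overlapped. ENSCAFT00000040266, next to CCDC107 on chromosome 11, was at 6094, 6819 and 4001 FPKM in pacing libraries, against 7927, 6233 and 2797 FPKM in control libraries. The RNA beside PARP2 on chromosome 15 (ENSCAFT00000042503, 433 nt) was at 323.9, 449.9 and 399.4 FPKM in pacing libraries, against 372.7, 488.0 and 186.0 FPKM in control libraries. In RefSeq the gene next to PARP2, which encodes a DNA repair polymerase, is RPPH1, the RNA of ribonuclease P, a tRNA-processing enzyme. PARP2 mRNA itself was at 2.85, 3.33 and 2.98 FPKM in pacing libraries, against 4.28, 2.15 and 3.25 FPKM in control libraries. FPKM of such short RNAs depends strongly on the fragment lengths assumed, which bears on their share of the sum and on any level set against that of another transcript.

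ENSCAFT00000040437 lies antisense in an intron of RYR2, whose protein releases calcium from the stores of heart muscle cells, on chromosome 4. It was at 24.2, 119.2 and 143.4 FPKM in pacing libraries, against 156.8, 76.2 and 51.5 FPKM in C1, C2 and C4. RYR2 mRNA varied far less, at 312.2, 342.3 and 389.0 FPKM in pacing libraries, against 426.8, 243.7 and 451.9 FPKM in control libraries. In neither did the groups separate. The lncRNA that overlaps RHOB, which encodes a small GTPase, was different (ENSCAFT00000057104, 2206 nt, chromosome 17). It is classed as intron sense-overlapping, and whether its reads can be told apart from those of RHOB was not tested. It was at 74.1, 89.2 and 56.0 FPKM in pacing libraries, against 129.4, 110.3 and 98.6 FPKM in C1, C2 and C4, with every pacing library below every control library, but did not pass the test. RHOB mRNA was at 155.4, 148.8 and 131.0 FPKM in pacing libraries, against 293.5, 177.5 and 140.9 FPKM in control libraries, and those groups overlapped.

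Pacing was then compared with control on log2(FPKM + 1) with limma, over 894 lncRNAs, of which 250 were members. None of the 250 passed an adjusted p of 0.05, the smallest being 0.659 (Benjamini-Hochberg over all lncRNAs tested), and no intergenic lncRNA did either, so 0.0% of lncRNAs were called in each direction. At an unadjusted p of 0.05 there were 7 members higher (2.8%) and 5 lower (2.0%) in pacing, against 3.24% and 2.13% of all lncRNAs, and the two-sample test of each feature also gave 0 adjusted calls. With a 2-fold change added, 5 members were higher and 5 lower, or 4.0% of members in both directions. Over all lncRNAs 2.01% were higher and 1.23% lower, or 3.24% in both directions. The median log2 fold change of members was 0.05, against 0.04 over all lncRNAs tested. Groups did not overlap for 14 members higher (5.6%) and 10 lower (4.0%) in pacing, against 6.94% and 4.81% of all lncRNAs. Without C4, 6 members were higher and 8 lower at the fold and unadjusted p thresholds, and 4 and 3 of the original calls were among them.

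Of the 10 members past both thresholds, 8 were intron sense-overlapping, as were 144 of the 250 members tested (57.6%), and 8 had fewer than 10 estimated reads in every library, as had 90 of the 250 (36.0%). ENSCAFT00000059114, antisense in an intron of FMNL2, a formin that builds actin filaments, had the most reads of those listed at 0 in control. It was at 1.22, 0.618 and 2.41 FPKM in P1, P2 and P3 (an estimated 20.1, 14.1 and 54.7 reads) and was listed at 0 in C1, C2 and C4. Every pacing library was above every control library (log2 fold change 1.20 ± 0.34 SE, adjusted p = 0.659, limma). FMNL2 mRNA was at 18.1, 15.3 and 16.1 FPKM in pacing libraries, against 16.5, 29.99 and 8.83 FPKM in control libraries, without separation. The antisense transcript in SLC35F4, ENSCAFT00000055847, was at 1.53, 2.80 and 0.525 FPKM in pacing libraries and listed at 0 in all control libraries, on 2.01, 4.97 and 0.99 estimated reads. Of the 12 members at an unadjusted p of 0.05, 3 were listed at 0 in all control libraries and 2 in all pacing libraries. These passed the filter on low values through 1 group alone, so their separation gives no support of its own.

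KLF9 encodes a transcription factor that responds to glucocorticoids, and a transcript of 182 nt lies inside it in the same direction (ENSCAFT00000054174, chromosome 1). It was at 14.8, 16.6 and 22.7 FPKM in pacing libraries, against 7.46, 3.39 and 7.80 FPKM in control libraries, and the groups did not overlap. The log2 fold change was 1.45 ± 0.43 (SE, adjusted p = 0.659, limma), and 1.62 without C4. KLF9 mRNA went with no such separation, at 19.7, 17.4 and 15.9 FPKM in pacing libraries, against 31.4, 18.3 and 15.7 FPKM in control libraries. The lncRNA rested on 9.41, 12.6 and 16.1 estimated reads in pacing libraries, against 2.87, 1.22 and 3.94 in control libraries. Reads of so short a transcript are extrapolated from longer ones. The bidirectional transcript beside FREM2, a basement membrane protein, was at 0.522, 0.520 and 1.03 FPKM in pacing libraries, against 0.0892, 0.167 and 0 in control libraries (log2 fold change 0.63 ± 0.26 SE, adjusted p = 0.821, limma). This transcript passed the filter on low values through the pacing libraries, so its difference gives no support of its own. It starts 143 bases from FREM2, whose mRNA was at 7.79, 5.48 and 11.6 FPKM in pacing libraries, against 8.61, 5.10 and 15.3 FPKM in control libraries.

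On the lower side, the transcript in SPATA5 (ENSCAFT00000041055, 300 nt) was at 0, 2.74 and 2.16 FPKM in pacing libraries, against 5.32, 7.35 and 4.86 FPKM in control libraries. The transcript in DOPEY1 (ENSCAFT00000041696) was at 0, 0 and 0.449 FPKM in pacing libraries, against 1.85, 0.853 and 1.45 FPKM in control libraries. Pacing lay below control throughout in both (log2 fold changes -1.57 ± 0.53 and -1.05 ± 0.32 SE, adjusted p = 0.704 and 0.659, limma), on at most 9.05 and 1.99 estimated reads. The transcript in DOPEY1 passed the filter on low values through the control libraries, so its separation gives no support of its own. ENSCAFT00000058846, in ENSCAFG00000009016, was listed at 0 in all pacing libraries and in C4, and at 11.2 and 10.2 FPKM in C1 and C2. It is 165 nt long and its control values rest on 3.70 and 3.02 estimated reads, also extrapolated from longer transcripts. Its adjusted p was 0.821 with C4 and 0.00972 without C4 (limma), the single adjusted call among members when C4 was left out. It passed the filter on low values through C1 and C2 alone. Without C4 the test set pacing values of 0 against those same values, so this call gives no support for a difference.

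**Figure D4:**
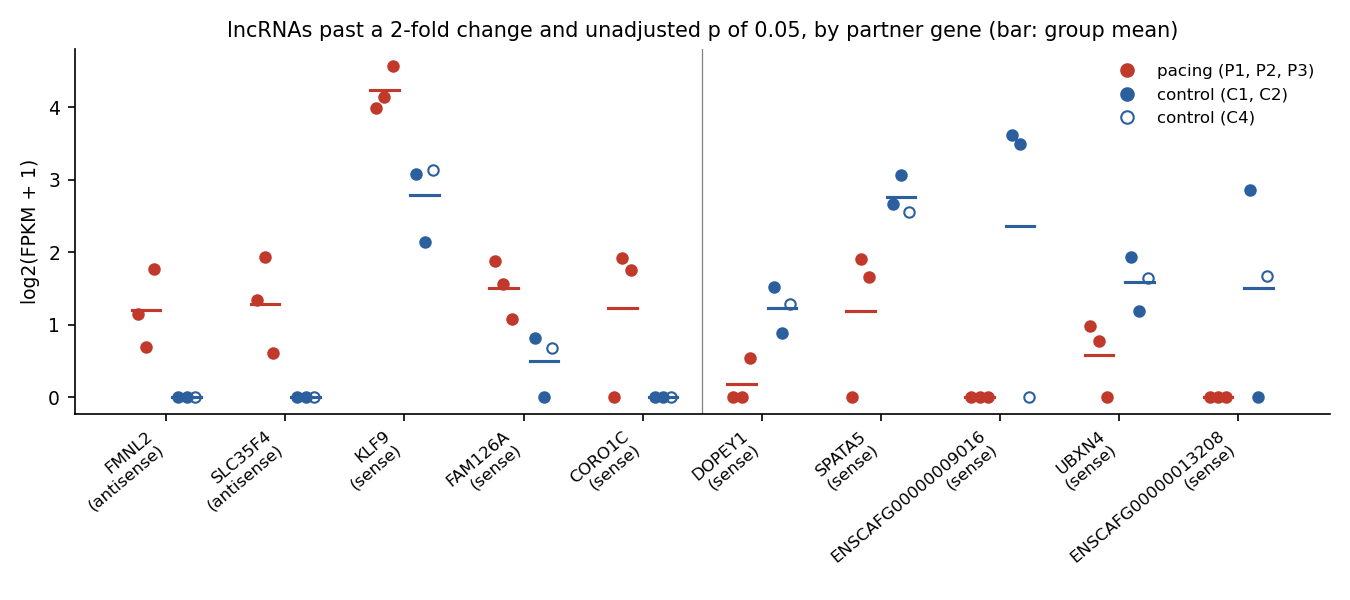
log2(FPKM + 1) of the 10 members past a 2-fold change and an unadjusted p of 0.05 (x axis, by partner gene), with pacing libraries in red, control libraries in blue, C4 as an open circle and bars at the group means. The 5 on the left were higher and the 5 on the right lower in pacing, and many of the values are 0.

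Partner genes in lists of cardiac function had few tested lncRNAs. The mRNA counts below cover every tested gene of a list, with or without a lncRNA beside it. Partner genes, tested or not, numbered 9 in the transcription factor list, 26 in the ion channel list and 20 in the matrix list. Among partners, TRPM3 and RYR3 of the ion channels and COL24A1 of the matrix list passed the thresholds as higher in pacing. THBS1 of the matrix list passed as lower. Without C4 the log2 fold changes of TRPM3, RYR3 and COL24A1 were 0.85, 0.99 and 0.74, short of 2-fold, and that of THBS1 was -2.21. Of 31 tested cardiac transcription factor mRNAs, 0 were higher and 0 lower at the fold and unadjusted p thresholds, and 2 lncRNAs beside genes of this list were tested. Of 70 ion channel mRNAs 5 were higher and 1 lower, with 7 lncRNAs tested, and of 108 matrix mRNAs 11 were higher and 4 lower, with 4 lncRNAs tested. Over all 11583 mRNAs, 1.05% were higher and 0.958% lower. Of 28 sarcomere and 19 immediate early mRNAs none passed, and of 163 mitochondrial mRNAs 2 were higher and 1 lower. The lists were written with earlier results of these data known, and their counts were not repeated without C4. No lncRNA beside a gene of these lists passed the thresholds.

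The bidirectional lncRNA beside MEF2C, a transcription factor of heart muscle development, was at 5.24, 10.4 and 6.55 FPKM in pacing libraries, against 2.85, 4.34 and 6.11 FPKM in C1, C2 and C4 (ENSCAFT00000055604, 512 bases from the start of MEF2C). MEF2C mRNA was at 40.5, 44.6 and 39.1 FPKM in pacing libraries, against 38.9, 29.4 and 24.8 FPKM in control libraries. The lncRNA groups overlapped in C4. The mRNA groups were barely apart, with the lowest pacing value at 39.1 FPKM and the highest control value at 38.9 FPKM. The share of all mRNAs without overlap was not counted, and neither lncRNA nor mRNA passed the thresholds. The transcript inside CACNA1C, the pore of the cardiac L-type calcium channel, was at 7.04, 7.71 and 8.94 FPKM in pacing libraries, against 8.31, 4.12 and 4.496 FPKM in control libraries, and the groups overlapped. CACNA1C mRNA was at 23.9, 18.1 and 32.0 FPKM in pacing libraries, against 22.3, 15.4 and 11.5 FPKM in control libraries.

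Pairs that were high in C4 alone were looked for after the values were seen, as a level over 4-fold above every other library. ENSCAFT00000052356, antisense to IRX5, a homeobox transcription factor that in the mouse shapes repolarization across the ventricular wall, was at 0.113, 0 and 0 FPKM in pacing libraries, against 0.246, 0 and 3.21 FPKM in C1, C2 and C4. IRX5 mRNA was at 0.0672, 0 and 0.0484 FPKM in pacing libraries, against 0.0918, 0 and 3.34 FPKM in C1, C2 and C4. The lncRNA and the mRNA were both near 0 in the 5 other libraries. ENSCAFT00000032861, antisense in an intron of IMPG2, was at 1.9, 0.695 and 1.99 FPKM in pacing libraries, against 2.01, 1.24 and 74.2 FPKM in C1, C2 and C4, while IMPG2 mRNA was at 1.66, 0.893 and 1.45 FPKM in pacing libraries, against 0.953, 1.69 and 3.49 FPKM in control libraries. Such single-library highs were not particular to C4, as 4 members met the rule there and 5 in C2, and the other 2 in C4 rested on 1.98 and 1.12 estimated reads.

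Of the 1091 partner mRNAs tested, 17 were higher and 5 lower at the fold and unadjusted p thresholds, or 1.56% and 0.458%. At an adjusted p of 0.05 there were 0, where 0.0% of all mRNAs were called higher and 0.0259% lower, and at an unadjusted p of 0.05 there were 46 higher (4.22%) and 23 lower (2.11%), against 2.52% and 3.02% of all mRNAs. Without C4 the counts became 8 higher and 33 lower, and 5 and 3 of the original calls were among them. THBS1, thrombospondin 1 of the extracellular matrix, was at 450.3, 307.3 and 286.8 FPKM in pacing libraries, against 1136, 2199 and 557.5 FPKM in control libraries (log2 fold change -1.71 ± 0.49 SE, adjusted p = 0.879, limma, and -2.21 without C4). Its 2 bidirectional lncRNAs stayed at or under 0.508 FPKM in every library. DPP6, an accessory subunit of potassium channels, was at 2.57, 2.60 and 4.44 FPKM in pacing libraries, against 5.55, 8.81 and 18.4 FPKM in control libraries, and its log2 fold change without C4 was -0.96, short of 2-fold. PPP1R3A, which directs a phosphatase to muscle glycogen, was at 58.3, 99.4 and 76.3 FPKM in pacing libraries, against 42.7, 24.0 and 42.9 FPKM in control libraries, and both of its antisense lncRNAs were listed at 0 throughout. LTBP3, which binds latent TGF-beta, was at 18.7, 9.20 and 11.2 FPKM in pacing libraries, against 7.76, 6.35 and 2.07 FPKM in control libraries, and its log2 fold change without C4 was 0.75, also short of 2-fold.

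Few lncRNAs or partners of the tested pairs reached an unadjusted p of 0.05. Of 221 pairs with both tested, 11 had a lncRNA and 11 a partner at an unadjusted p of 0.05, and 0 had both. With so few, a pair with both would be rare even if lncRNA and partner were unrelated. The 0 therefore does not show whether they move together. Fold changes had the same sign in 132 of the 221, and sign counts were not set against those of unrelated pairs. By class this was 90 of 139 intron sense-overlapping pairs (64.7%), 29 of 51 intronic antisense pairs (56.9%) and 12 of 27 bidirectional pairs (44.4%). Pearson's r of the log2 fold changes was 0.27, 0.11 and -0.06 over these pairs, which share all 6 libraries. Among the 11 pairs whose lncRNA was at an unadjusted p of 0.05, the sign was the same in 4. Over the processing alternatives run, 26 of 43 named lncRNAs kept 1 sign and 17 changed it at least once, and of the 40 tested partner mRNAs of named lncRNAs 15 kept 1 sign and 25 changed it.

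**Figure D5:**
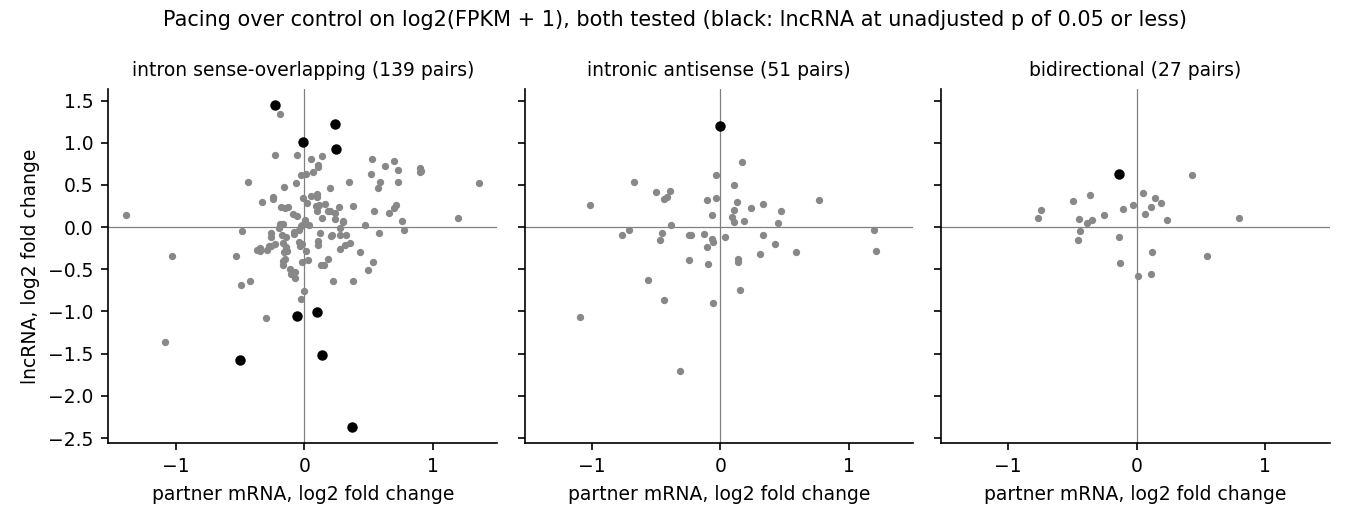
log2 fold change of pacing over control of each lncRNA (y axis) and its partner mRNA (x axis) for pairs with both tested, in 3 classes, with lncRNAs at an unadjusted p of 0.05 or less in black. Signs were the same in 90 of 139 intron sense-overlapping, 29 of 51 intronic antisense and 12 of 27 bidirectional pairs.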

How the data were processed

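Total RNA was depleted of ribosomal RNA and sequenced with a stranded kit. The authors' processing notes name cutadapt 1.9.3, HISAT2, Cufflinks and Cuffdiff on canFam3 without options, and the deposited lncRNA and mRNA tables hold FPKM values that the authors computed per library. These FPKM were used as deposited, and 12 per-sample columns of other measures in the 2 tables were not used, nor were the circRNA and miRNA tables. A transcript listed in several rows entered once. Low transcripts were dropped (mean under 0.3 FPKM for lncRNAs and under 1 FPKM for mRNAs), and the rest went into limma 3.58.1 (variance trend, 2-sided) on log2(FPKM + 1), with Benjamini-Hochberg adjustment over each whole table. A fold change on this scale understates that of low transcripts. Calls were made at an adjusted p under 0.05, and at a 2-fold change with an unadjusted p of 0.05. Nothing pairs the libraries, and p-values measure the spread between them. Depth is not stated. Low FPKM values are multiples of 1 read, and 94.8% to 96.9% of those under 6 reads came out within 0.1 of a whole read, which gave the relative depths and estimated reads. The shortest transcripts were left out of this fit, so their estimated reads are extrapolated. The locus in the table is often that of the partner, so distances between starts were computed where the loci do not overlap. Members, lists and tests were chosen with earlier results of these data known. Named lncRNAs are the 10 with the smallest p in each direction, the 10 with the highest mean FPKM and each tested one beside a gene of 7 lists, and others are named as chosen after their values were seen. The code was tested on simulated data. No genome sequence was used here. Alternatives covered the pseudocount, filters, scaling, the variance model, the test, the group of C4 and each library left out, and a scaling over transcript length was added after the data were seen. Some named or partner genes are not reported here, though they stay in the counts.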

Additional observations from a re-analysis of the deposited data

How the results depend on the processing

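The counts rested on few libraries. Members past the fold and unadjusted p thresholds were 5 higher and 5 lower in pacing. With a pseudocount of 0.1 there were 8 higher, with the stricter filter 2 higher and 3 lower, with no filter 3 lower, with quantile normalization 3 lower, with the two-sample test 1 lower, and with C4 counted as pacing 2 higher and 8 lower. Leaving out each library in turn gave 3 to 10 higher and 1 to 8 lower, with the extremes without P2 (3 higher and 1 lower), C1 (10 higher) and C4 (8 lower), and 9 higher and 3 lower without P1 and 2 lower without P3. Adjusted calls were 0 higher throughout and 0 to 1 lower over the libraries left out, and 1 lower with C4 counted as pacing. Partner mRNAs, 17 higher and 5 lower, became 6 higher with the stricter filter, 8 higher and 3 lower with the two-sample test, 8 lower with a pseudocount of 0.1, and 5 higher and 51 lower with C4 counted as pacing. They ranged over 8 to 40 higher and 3 to 33 lower as each library was left out, with 40 higher and 12 lower without C1, 8 higher and 33 lower without C4, 13 lower without P1 and 3 lower without P2. Pairs of the same sign were 132 of 221, 60 of 95 with the stricter filter and 405 of 734 with no filter, and 113 to 128 as each library was left out. The median log2 fold change of members lay between -0.01 and 0.13 over the libraries left out. The cause of these changes was not tested, other than that the filters change how many were tested.

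Many fold changes of named transcripts that had not passed the thresholds reversed. Of the 20 lncRNAs of smallest p, 19 kept 1 sign under every alternative and the one in FOXK1 (ENSCAFT00000058740) did not. These 20 were picked by p in the same libraries, which favours a steady sign, so the count is no measure of support. Of the 23 others 16 changed sign, as did 25 of 40 partner mRNAs. With C4 counted as pacing the log2 fold change reversed for the lncRNAs ENSCAFT00000058740 (0.12), ENSCAFT00000034117 (-0.19), ENSCAFT00000040266 (-0.60), ENSCAFT00000033449 (-0.31), ENSCAFT00000042503 (-0.40), ENSCAFT00000054028 (0.26), ENSCAFT00000052356 (0.40), ENSCAFT00000052841 (0.13) and ENSCAFT00000055300 (-0.12) and the mRNAs RAPGEF5 (-0.02), FAM126A (0.00), DOPEY1 (0.05), PLXDC2 (-0.31), PARP2 (0.01), FREM2 (0.44), EPB41L1 (-0.74), SLC2A13 (-0.28), RYR2 (0.20), CORO1C (-0.26), PDE3A (0.26), KHNYN (-0.25), MMP1 (-0.45), TRPM7 (0.07) and ENSCAFG00000024066 (-0.55). With quantile normalization it reversed for the lncRNAs ENSCAFT00000034117 (-0.56), ENSCAFT00000033449 (-0.26) and ENSCAFT00000040437 (0.28) and the mRNAs FAM126A (0.07), DOPEY1 (0.01), FMNL2 (0.08), RYR2 (0.09), PDE3A (0.03) and FOXK1 (0.02). With equal medians it reversed for the mRNAs FAM126A (0.04), PARP2 (0.02), FMNL2 (0.05) and PDE3A (0.02), and with a pseudocount of 0.1 for the mRNAs FMNL2 (0.01) and MMP1 (-0.27). As each library was left out, the log2 fold changes of lncRNAs that reversed spanned -0.35 to 0.40 for ENSCAFT00000040266, -0.26 to 0.18 for ENSCAFT00000034060, -0.06 to 0.66 for ENSCAFT00000033449, -0.14 to 0.56 for ENSCAFT00000042503, -0.65 to 0.61 for ENSCAFT00000040437, -0.52 to 0.09 for ENSCAFT00000054028, -0.21 to 0.71 for ENSCAFT00000041247, -1.29 to 0.62 for ENSCAFT00000045974, -0.37 to 0.11 for ENSCAFT00000049577, -0.50 to 0.17 for ENSCAFT00000056023, -0.00 to 1.69 for ENSCAFT00000056377, -0.37 to 0.28 for ENSCAFT00000052841 and -1.19 to 0.16 for ENSCAFT00000053192. Those of the partner mRNAs that reversed spanned -0.03 to 0.22 for LAMA2, -0.43 to 0.05 for KLF9, -0.16 to 0.16 for FAM126A, -0.16 to 0.03 for DOPEY1, -0.23 to 0.15 for PARP2, -0.42 to 0.41 for FMNL2, -0.48 to 0.22 for FREM2, -0.12 to 0.27 for CACNA2D1, -0.42 to 0.18 for GALNT18, -0.44 to 0.40 for EPB41L1, -0.07 to 0.51 for SLC2A13, -0.34 to 0.10 for RYR2, -0.37 to 0.14 for KCNQ1, -0.05 to 0.44 for CORO1C, -0.31 to 0.15 for PDE3A, -0.10 to 0.32 for KHNYN, -1.45 to 1.02 for MMP1, -0.56 to 0.22 for FOXK1, -0.31 to 0.38 for RPS6KA5, -0.27 to 0.43 for ENSCAFG00000024066 and -0.10 to 0.85 for ENSCAFG00000032104. No paired analysis was made, because the pacing and control groups were separate dogs divided at random. Depth limits these results, since 90 of the 250 tested members had fewer than 10 estimated reads in every library.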
